A study of Mus musculus with 12 samples.

Results

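The 10 genes described here belong to the machinery by which cells sense stretch, flow and stiffness. They were the transcriptional coactivators Yap1 and Wwtr1 (the gene of TAZ), their DNA-binding partner Tead1, the target genes Ccn1, Ccn2 and Ankrd1, the mechanically gated channels Piezo1 and Piezo2, and the channels Trpv4 and Kcnj2. The rule that chose them names genes and uses no measured value, although earlier results of these data were known when it was made, and all 10 were found among the 28689 genes of the deposited expression table by Ensembl identifier. RNA-seq was performed on mouse lung endothelial cells (MLECs) of CTR and dKO mice, with 6 libraries in each group. The question was how endothelial loss of Sp1 and Sp3, zinc-finger factors that bind GC-rich promoter boxes, changed gene expression.

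The dKO mice were VE-CAD-CreERT2+/Sp1 fl/fl/Sp3 fl/fl, in which tamoxifen activates a Cre recombinase driven by the VE-cadherin promoter. The CTR mice were littermates without the Cre gene, VE-CAD-CreERT2-/Sp1 fl/fl/Sp3 fl/fl, although their label reads WT. All mice were young adult males, both groups carried the same floxed alleles, and both were injected with tamoxifen. The CTR group therefore lacks the Cre gene as well as the deletion, and the effects of these cannot be told apart. The cells were selected from lung with beads against CD31 and then ICAM2, and were cultured before RNA was taken. The number of mice behind a library is not stated, so p-values measure the spread between these libraries.

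YAP and TAZ carry no DNA-binding domain and act in the nucleus through TEAD factors. The Hippo kinases phosphorylate both proteins and hold them in the cytoplasm, while spread, stretched or stiffly attached cells keep them nuclear. In endothelium, PIEZO1 and TRPV4 admit calcium when the membrane is stretched or when blood flows over the cell, and the inward rectifier Kir2.1, the product of Kcnj2, also responds to flow. Abundance of an mRNA does not report the activity or location of its protein.

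The libraries held between 15523054 and 17938286 fragments. Sp1 fell by 0.95 on the log2 scale in dKO (SE 0.091, limma adjusted p = 5.68e-06), and the dKO libraries all lay below the CTR libraries. Sp3 averaged 27.7 ± 2.31 FPKM in CTR and 25.0 ± 1.64 FPKM in dKO (SD, n = 6), a log2 difference of −0.14 with an adjusted p of 0.0902 by limma, and 2 dKO libraries lay below all CTR libraries. Sp3 thus checks the labels less firmly than Sp1. The 10 endothelial markers examined were all detected and all higher in dKO, and their summed level was 188 to 309 FPKM in CTR and 358 to 483 FPKM in dKO. Markers of other cells were abundant beside them. Of 9 fibroblast markers tested, 5 were lower and 1 was higher in dKO, and the fibroblast sum, led by the collagen gene Col1a1, was 2168 to 2766 FPKM in CTR and 845 to 1696 FPKM in dKO. This sum is mainly collagen mRNA. Col1a1, Col1a2 and Col3a1 averaged 1173, 598 and 544 FPKM in CTR and 572, 358 and 257 FPKM in dKO. A level set against it below is therefore mainly a level per collagen mRNA. Of 10 macrophage markers, 9 were higher and 1 was lower, and the sum, led by Lyz2, was 850 to 1425 FPKM in CTR and 2413 to 5340 FPKM in dKO. Of 6 mesothelial markers tested, 5 were higher and 0 lower, and the sum of the list, led by Msln, was 28.9 to 38.6 FPKM in CTR and 66.3 to 146 FPKM in dKO. In smooth muscle and pericyte markers 2 of 9 tested were higher and 0 lower, and the sum, led by Acta2, overlapped between groups, at 564 to 1510 FPKM in CTR and 510 to 909 FPKM in dKO. Of 8 lung epithelial markers 1 was higher and 0 were lower, and the sum, led by Sftpc, also overlapped, at 92.9 to 534 FPKM in CTR and 159 to 377 FPKM in dKO. The extract protocol of the labels mentions retina, but each of the 7 retinal markers in the table stayed under 1 FPKM in all 12 libraries, and Nrl was not analysed here. In bulk RNA, more cells of a type and more RNA per cell cannot be told apart.

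All 10 genes passed the filter on low values, which asked for 6 or more of the 12 libraries to reach 1 FPKM. Among them, 3 differed between dKO and CTR at an adjusted p under 0.05, against 53.1% of the 12467 genes tested. Ccn2 and Trpv4 were higher in dKO, where 20.4% of all genes tested were called higher, and Wwtr1 was lower, where 32.6% were called lower. Only Trpv4 had groups that did not overlap, against 27.4% of the genes tested, and 11.3% had dKO libraries that all lay above the CTR libraries. All Trpv4 values in CTR were under 1 FPKM, so it could pass the filter only with all 6 dKO libraries above them. Its separation was thus fixed by the filter and is not a result beside these shares. The median log2 fold change of all genes tested was −0.10, which is the level against which small changes have to be read. Over the 10 genes the median was −0.02.

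**Figure D1:**
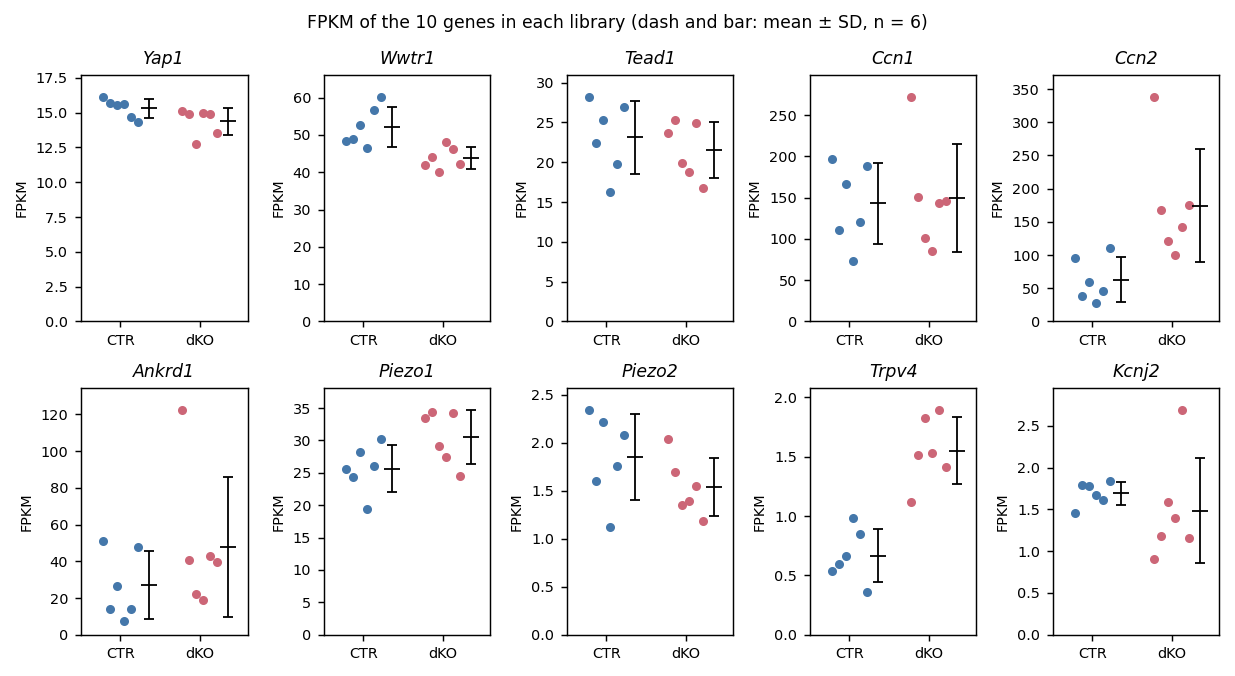
Expression (FPKM, vertical axes from 0) of the 10 genes in each of 6 CTR libraries (blue) and 6 dKO libraries (red), with the mean and SD as a dash and bar. The Trpv4 groups do not overlap, 5 dKO libraries exceed all CTR libraries for Ccn2, and dKO replicate 1 stands highest for Ccn1, Ccn2 and Ankrd1.

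Ccn1 and Ankrd1 are shown with the sequence upstream of their start sites, because both are read out as YAP/TAZ targets but differ in their promoter letters. Each sequence covers the 250 bases before the annotated start of the canonical transcript, 5′ to 3′ on the strand of the gene, in the GRCm39 genome (the assembly also called mm39). The positions are chr3:145355739-145355988 for Ccn1 and chr19:36097507-36097756 for Ankrd1, both on the minus strand. Capitals mark the TEAD motif GGAATG or its complement CATTCC, the GC box GGGCGG or its complement CCGCCC, and the TATA box TATAAA.
Ccn1: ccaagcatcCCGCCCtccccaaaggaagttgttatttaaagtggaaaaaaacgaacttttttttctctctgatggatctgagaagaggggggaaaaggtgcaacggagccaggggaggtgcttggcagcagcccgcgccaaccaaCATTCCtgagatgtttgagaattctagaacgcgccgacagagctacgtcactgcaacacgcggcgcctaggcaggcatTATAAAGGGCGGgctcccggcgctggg
Ankrd1: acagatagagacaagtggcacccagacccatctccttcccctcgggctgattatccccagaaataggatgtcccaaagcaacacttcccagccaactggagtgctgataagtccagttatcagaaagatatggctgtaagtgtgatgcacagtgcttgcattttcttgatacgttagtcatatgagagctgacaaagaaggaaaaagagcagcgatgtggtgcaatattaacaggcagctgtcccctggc

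Motifs were searched on both strands in windows reaching 250 bases upstream and 50 bases downstream of a start, over 12375 genes tested. A TEAD motif was found in 13.4% of all windows and a GC box in 56.3%. In Ccn1 there was 1 TEAD motif at −105, with GC boxes at −241 and −21, the latter adjoining a TATA box at −27. Ankrd1 had none of these motifs in its window. TATA boxes were found in 5.08% of windows, and the SRF-binding CArG box, which was searched as well, in 1.37% and in none of the member windows described here. A match is a description of letters, and these windows hold no measurement of binding.

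The other members described differed as well. Tead1 had 4 GC boxes and 3 TEAD motifs, whereas Yap1 and Wwtr1 each had 2 GC boxes and 1 TEAD motif. Among the channel genes, Trpv4 had 3 GC boxes, at −10, +5 and +20 from its start site. Kcnj2 had 2, and Piezo1 and Piezo2 had 1 each. No TEAD motif was found in a channel gene window. Of the genes not called, Ankrd1 alone had no GC box.

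Yap1, the coactivator held back by the Hippo kinases, was expressed at 14.3 to 16.1 FPKM in CTR (median 15.6) and at 12.7 to 15.1 FPKM in dKO (median 14.9). The groups overlapped, with 2 dKO libraries below all CTR libraries. Yap1 had a log2 fold change of −0.09 (SE 0.058, limma adjusted p = 0.212), with a 95% confidence interval of −0.21 to 0.04. It had the smallest relative spread of the 10 genes in CTR, a coefficient of variation of 4.46%.

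Wwtr1, which encodes the YAP paralog TAZ, was the more abundant of the pair in both groups. Its level was 46.5 to 60.2 FPKM in CTR (median 50.7) and 40.1 to 48.2 FPKM in dKO (median 43.2). In dKO, 5 libraries lay below all CTR libraries, and dKO replicate 4 lay among the lower CTR libraries. Wwtr1 was lower in dKO by a log2 fold change of −0.24 (SE 0.074, limma adjusted p = 0.0145), a fold of 0.844, and the two-sided exact permutation test gave p = 0.00433. The call was lost with median-of-ratios scaling, where the log2 fold change was −0.15 (adjusted p = 0.116). The ratio of Wwtr1 to Yap1 within a library does not depend on scaling. It averaged 3.43 ± 0.506 in CTR and 3.06 ± 0.158 in dKO (SD, n = 6), and the difference did not pass an exact permutation test (p = 0.123, adjusted over 4 ratios 0.165). Per 100 FPKM of endothelial markers, the median Wwtr1 level was 23.5 in CTR and 10.4 in dKO, whereas per 100 FPKM of fibroblast markers it was 2.11 and 3.04, without overlap in either case. Wwtr1 was also lower in dKO, without overlap, against mesothelial and macrophage markers, with dKO to CTR ratios of medians of 0.227 and 0.317. The groups overlapped against smooth muscle and pericyte markers (ratio of medians 1.096) and lung epithelial markers (0.832). The direction for Wwtr1 therefore depended on the marker sum it was set against. Among the lists without overlap, it was higher in dKO against fibroblast markers only. The part of cell composition in the Wwtr1 change was not tested.

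Tead1, the DNA-binding partner of both coactivators, was expressed at 16.2 to 28.2 FPKM in CTR (median 23.9) and 16.8 to 25.3 FPKM in dKO (median 21.8). The dKO range lay inside the CTR range. A log2 fold change of −0.09 was found for Tead1 (SE 0.139, limma adjusted p = 0.604). Tead1 made up 49.0% ± 4.59 of the summed FPKM of Tead1 to Tead4 in CTR and 51.7% ± 4.75 in dKO (SD, n = 6, exact permutation p = 0.351).

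**Figure D2:**
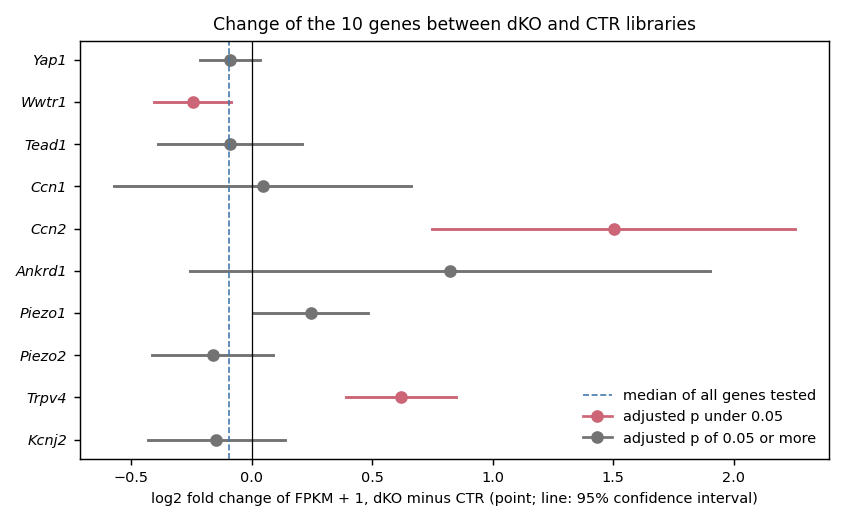
Log2 fold change of FPKM + 1 (horizontal axis, dKO minus CTR) of the 10 genes, as a point with its 95% confidence interval; red marks an adjusted p under 0.05 and the dashed line the median of all genes tested (−0.10). Ccn2 (1.501) and Trpv4 (0.62) lie to the right, Wwtr1 (−0.24) to the left, and the intervals of Ccn1 and Ankrd1 are wide.

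Ccn2 (also called CTGF), a secreted matricellular protein and a classical YAP/TAZ target, showed the largest change of the 10 genes. CTR libraries held 27.6 to 111 FPKM (median 52.6) and dKO libraries 100 to 338 FPKM (median 155). Here 5 dKO libraries exceeded all CTR libraries, and dKO replicate 4, the lowest of its group, fell just under CTR replicate 6, the highest of the other. Its log2 fold change was 1.501 (SE 0.349, limma adjusted p = 0.00311), a fold of 2.83 with a 95% confidence interval of 0.75 to 2.25 on the log2 scale, and the exact permutation p was 0.00433. Ccn2 was the 1 gene of the 10 with an absolute log2 fold change over 1.5 as well, which it passed by less than 0.01, against 1.98% of all genes tested. When each library was left out in turn, its log2 fold change ran from 1.29 to 1.69, and the call held each time. Leaving out dKO replicate 1, whose value was 338 FPKM, gave the 1.29. On the opposite strand, Gm15270 overlapped 36.5% of the exon length of Ccn2 but held 0.0478 FPKM in CTR and 0.0462 FPKM in dKO.

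Ccn1 (also called CYR61), a CCN family paralog of Ccn2 and likewise a YAP/TAZ target, was not called. Its level was 73.6 to 197 FPKM in CTR (median 144) and 85.4 to 272 FPKM in dKO (median 144). The ranges overlapped throughout except for dKO replicate 1, which exceeded every CTR library. Ccn1 had a log2 fold change of 0.05 (SE 0.285, limma adjusted p = 0.905), but its 95% confidence interval ran from −0.57 to 0.66, so moderate changes in either direction were not detectable with this spread. Gm17501, at 2.65 FPKM in CTR and 3.88 FPKM in dKO, overlapped 23.0% of its exon length on the opposite strand.

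Ankrd1, which encodes a muscle-associated ankyrin repeat protein, was the most variable of the 10 genes, with a coefficient of variation of 69.0% in CTR and 79.4% in dKO. It was expressed at 7.59 to 50.9 FPKM in CTR (median 20.4) and at 18.7 to 122 FPKM in dKO (median 40.2). Only dKO replicate 1 stood above all CTR libraries. The log2 fold change of 0.82 (SE 0.500, 95% confidence interval −0.26 to 1.90) did not pass the threshold (limma adjusted p = 0.181, exact permutation p = 0.184). Leaving out dKO replicate 1 lowered it to 0.50 (adjusted p = 0.363), and leaving out CTR replicate 4 gave 0.54 (adjusted p = 0.346).

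The contrast between the CCN paralogs was sharper within libraries than between them. The ratio of Ccn2 to Ccn1 was 0.348 to 0.586 in CTR, averaging 0.422 ± 0.0950, and 0.992 to 1.24 in dKO, averaging 1.15 ± 0.0906 (SD, n = 6). The 2 groups were fully separated. The ratio was 2.78-fold higher in dKO by its geometric mean, with an exact permutation p of 0.00216, the smallest that 924 splits can give, and an adjusted p of 0.00866 over 4 ratios. Ccn1 was the more abundant of the pair in every CTR library, whereas Ccn2 was the more abundant in 5 of 6 dKO libraries.

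**Figure D3:**
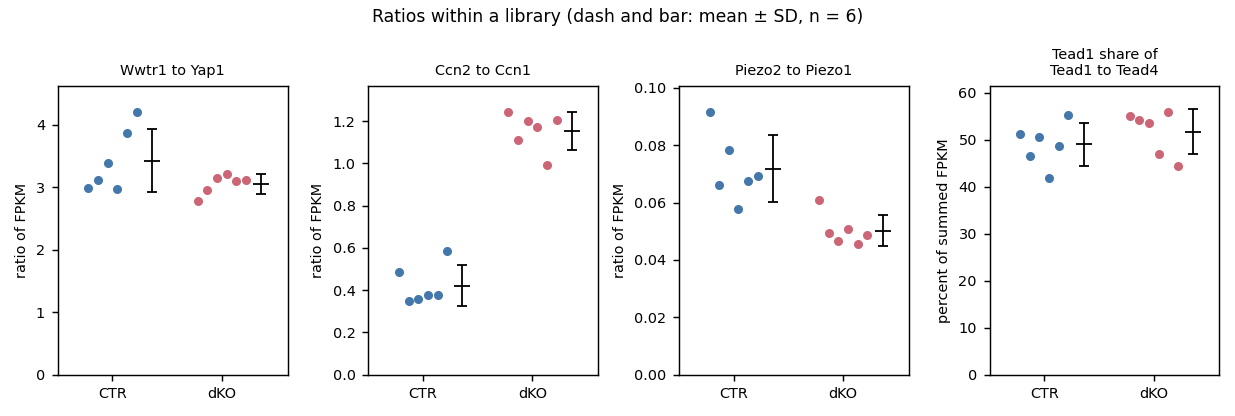
Ratios of FPKM within a library (vertical axes from 0) for the 4 ratios tested, with 6 CTR libraries in blue, 6 dKO libraries in red and the mean and SD as a dash and bar. The Ccn2 to Ccn1 ratio rises from a mean of 0.422 to 1.15 without overlap, and the Piezo2 to Piezo1 ratio falls from 0.0717 to 0.0502.

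Within a group the 3 target genes rose and fell together from library to library. These relations were looked at after the values had been seen, as 16 relations in all, each over the 6 libraries of 1 group. Ccn1 and Ccn2 correlated with r = 0.95 in CTR and r = 0.98 in dKO (exact permutation p = 0.00278 each, adjusted 0.00889), with a Spearman rho of 0.94 in both (p = 0.0167, adjusted 0.0381). Without the 2 libraries farthest from the median of Ccn1, r was 0.93 in CTR and 0.88 in dKO. Ccn1 and Ankrd1 correlated with r = 0.97 in CTR and 0.99 in dKO (exact permutation p = 0.00278 and 0.00556, adjusted 0.00889 and 0.0111), with rho of 0.94 and 0.83 (p = 0.0167 and 0.0583, adjusted 0.0381 and 0.0933). Leaving out the 2 farthest libraries gave r = 0.97 and 0.98. For Ccn2 and Ankrd1, r was 0.99 in CTR and 0.97 in dKO (exact permutation p = 0.00556 and 0.00833, adjusted 0.0111 and 0.0148), with rho of 0.89 and 0.77 (p = 0.0333 and 0.103, adjusted 0.0593 and 0.149). Without the 2 farthest libraries r was 0.98 in CTR and 0.77 in dKO.

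The same libraries were high and low for the summed smooth muscle and pericyte markers. This sum is mainly Acta2, which averaged 773 FPKM in CTR and 518 FPKM in dKO. Pdgfrb, the next most abundant of the list, averaged 71.1 and 65.5 FPKM. The summed level of smooth muscle and pericyte markers correlated with Ccn2 at r = 0.97 in CTR and 0.96 in dKO (exact permutation p = 0.00139, adjusted 0.00889), with a rho of 1 in both groups (p = 0.00278, adjusted 0.0148) and r = 0.99 and 0.97 without the 2 farthest libraries. Endothelial markers ran the other way in CTR, with r = −0.97 (exact permutation p = 0.00417, adjusted 0.0111), rho = −0.94 (p = 0.0167, adjusted 0.0381) and r = −0.98 without the 2 farthest libraries. In dKO that relation was r = −0.34 (exact permutation p = 0.556, adjusted 0.593), with rho = −0.26 (p = 0.658, adjusted 0.702) and r = −0.48 without the 2 farthest libraries. Fibroblast markers gave r = −0.95 in CTR (exact permutation p = 0.00972, adjusted 0.0156, rho −0.89, p = 0.0333, adjusted 0.0593) and −0.70 in dKO (p = 0.115, adjusted 0.138, rho −0.60, p = 0.242, adjusted 0.276), and −0.79 and −0.87 without the 2 farthest libraries. Mesothelial markers gave r = 0.71 in CTR (exact permutation p = 0.121, adjusted 0.138, rho 0.71, p = 0.136, adjusted 0.181) and 0.79 in dKO (p = 0.0278, adjusted 0.0404, rho 1, p = 0.00278, adjusted 0.0148), and 0.99 and 0.64 without the 2 farthest libraries. Macrophage markers gave r = −0.70 in CTR (exact permutation p = 0.115, adjusted 0.138, rho −0.66, p = 0.175, adjusted 0.215) and −0.21 in dKO (p = 0.667, adjusted 0.667, rho −0.20, p = 0.714, adjusted 0.714), and 0.12 and 0.05 without the 2 farthest libraries, so the relation in CTR rested on those libraries.

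**Figure D4:**
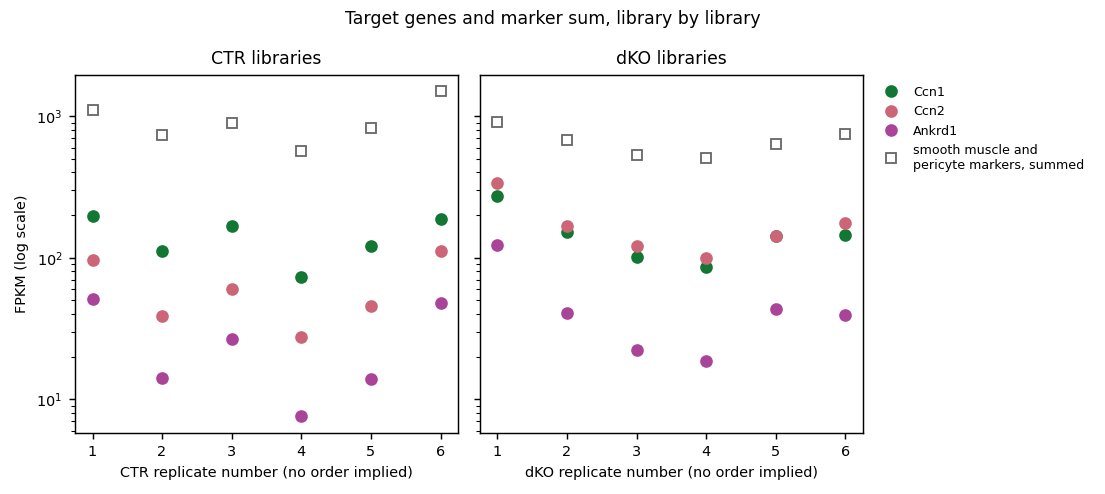
FPKM (log scale) of Ccn1 (green), Ccn2 (red), Ankrd1 (purple) and the summed smooth muscle and pericyte markers (open squares) in each library, by the replicate number of the labels, with CTR left and dKO right. The 4 series move together within a group, and Ccn2 lies below Ccn1 in every CTR library and above it or level with it in dKO.

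Setting Ccn2 against marker sums, also chosen after its values were seen, gave different answers by list. Per 100 FPKM of smooth muscle and pericyte markers, which is mainly Acta2, Ccn2 was 4.90 to 8.78 in CTR and 19.7 to 37.2 in dKO. Per 100 FPKM of fibroblast markers, which is mainly collagen genes, it was 0.999 to 5.01 in CTR and 5.91 to 40.0 in dKO. In these 2 cases the groups did not overlap. Per 100 FPKM of mesothelial markers, whose sum rose in dKO, Ccn2 had a median of 149 in CTR and 140 in dKO, with overlap. The groups overlapped as well per 100 FPKM of endothelial markers (medians 22.8 and 36.8), of macrophage markers (4.60 and 5.52) and of lung epithelial markers (23.7 and 72.7). The part of these cells in the Ccn2 level was not tested.

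The genes whose level followed Ccn2 most closely, after centring each group on its own mean, were Actn1 (r = 0.99), Pdlim7 (r = 0.99) and Cnn1 (r = 0.98), over 12 libraries that share these centred means and depths. Actn1 encodes an actin crosslinker, Pdlim7 a PDZ and LIM domain protein and Cnn1 a smooth muscle calponin. None of the 3 was called between groups, with log2 fold changes of 0.54, −0.20 and −0.54 (limma adjusted p = 0.0783, 0.367 and 0.258). For Wwtr1 they were Kdm5b (r = 0.94), Pnrc2 (r = 0.91) and Pim1 (r = 0.90).

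Piezo1, the stretch-gated cation channel of endothelium and blood cells, was expressed at 19.5 to 30.2 FPKM in CTR (median 25.8) and at 24.5 to 34.4 FPKM in dKO (median 31.3). Values of 3 dKO libraries exceeded all CTR libraries, and the others lay within the CTR range. The log2 fold change was 0.24 (SE 0.110), with an adjusted p of 0.0772 by limma and an exact permutation p of 0.0628. This gene sat near the threshold. It was called with median-of-ratios scaling (0.34, adjusted p = 0.02), and also when CTR replicate 6 (0.29, adjusted p = 0.0437) or dKO replicate 6 (0.30, adjusted p = 0.0324) was left out. Of the exon length of Piezo1, 39.5% overlapped Ctu2 on the opposite strand, and the use of strand in counting is not stated, so fragments of the overlap cannot be told apart. Ctu2 itself was at 3.83 FPKM in CTR and 2.99 FPKM in dKO.

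Piezo2, the paralog known from touch-sensing neurons, was low in these cells. It ranged from 1.13 to 2.34 FPKM in CTR (median 1.92) and from 1.19 to 2.04 FPKM in dKO (median 1.47), which is 287 to 594 and 288 to 461 fragments per library. The dKO range lay inside the CTR range. Its log2 fold change was −0.16 (SE 0.117, limma adjusted p = 0.258).

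Neither channel was called on its own, but their ratio differed. Piezo2 stood at 0.0717 ± 0.0117 of Piezo1 in CTR and at 0.0502 ± 0.00553 in dKO (SD, n = 6). In 5 dKO libraries the ratio was below that of every CTR library, and dKO replicate 1, at 0.0609, lay among the lower CTR values. The exact permutation p was 0.00433, or 0.00866 adjusted over 4 ratios, and the fold was 0.704 by the geometric mean. A ratio within a library shows unequal change, not which of the 2 genes changed.

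Trpv4, a calcium-permeable channel opened by flow, swelling and warmth, was the least abundant of the 10 genes in CTR. Its level was 0.360 to 0.983 FPKM in CTR (median 0.631) and 1.12 to 1.89 FPKM in dKO (median 1.52), or 25 to 70 and 71 to 135 fragments per library. Every dKO library exceeded every CTR library. The log2 fold change on the scale of log2(FPKM + 1) was 0.62 (SE 0.106, limma adjusted p = 0.000358), and the exact permutation p was 0.00216, the smallest possible. Adding 1 FPKM understates the change of so low a gene, and the ratio of group means was 2.33. All CTR libraries were under 1 FPKM, so Trpv4 could pass the filter only with every dKO library at 1 FPKM or more. The filter therefore fixed both its separation and its permutation p, and the filtered limma p was taken on a gene so selected. With no filter, limma still called it (0.62, adjusted p = 0.00118). It was called in all 24 alternatives run. Apart from the fit with no filter, these kept genes by levels that include the dKO values, so their number is not separate support.

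The sums of macrophage, endothelial and mesothelial markers were higher in dKO, as Trpv4 was. How Trpv4 went with these sums from library to library was not tested. Per 100 FPKM of macrophage markers, Trpv4 had a median of 0.0599 in CTR and 0.0454 in dKO, and the groups overlapped. They overlapped as well per 100 FPKM of endothelial markers, with medians of 0.295 in CTR and 0.360 in dKO, and of mesothelial markers, with medians of 1.89 and 1.41. Against the other lists Trpv4 stood higher in dKO. Per 100 FPKM of fibroblast markers, mainly collagen genes, it was 0.0163 to 0.0356 in CTR and 0.0903 to 0.172 in dKO, without overlap. The medians were 0.0779 and 0.260 per 100 FPKM of smooth muscle and pericyte markers and 0.302 and 0.628 per 100 FPKM of lung epithelial markers, with overlap in both. The part of these cells in the Trpv4 rise was not tested. The genes that followed Trpv4 most closely within groups, a list made after its values were seen, were Slc43a2 (r = 0.95), the lysosomal adaptor gene Rilp (r = 0.92) and Slc11a1 (r = 0.91), which encodes a metal transporter of macrophages, over 12 libraries.

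Kcnj2, the gene of the flow-sensitive inward rectifier Kir2.1, was also low. It ranged from 1.45 to 1.83 FPKM in CTR (median 1.72) and from 0.911 to 2.69 FPKM in dKO (median 1.28). In dKO, 4 libraries lay below all CTR libraries and dKO replicate 5 lay above all of them. For Kcnj2 the log2 fold change was −0.15 (SE 0.132, limma adjusted p = 0.367). That library decided the result, since leaving it out gave −0.27 with an adjusted p of 0.0237. The relative spread was 8.41% in CTR and 42.5% in dKO.

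FPKM are scaled by gene length, so levels can be set side by side, but the annotation behind the lengths is not stated. The length recovered from the FPKM of Wwtr1 was 4779 bases, against 11834 exon bases in the annotation used here. For Ankrd1 these were 1765 and 2983, and for Trpv4 4076 and 5907. The order below, and the level of the Wwtr1 to Yap1 ratio, depend on these lengths. A ratio of the FPKM of 1 gene between groups does not. The filter at 1 FPKM and the added 1 FPKM do depend on length, which matters for low genes such as Trpv4. Its log2 fold change was 0.62 with 1 FPKM added, 1.15 with 0.1 and 1.26 with 0.01. In CTR the order by mean FPKM was Ccn1 (143), Ccn2 (63.0), Wwtr1 (52.2), Ankrd1 (26.9), Piezo1 (25.6), Tead1 (23.1), Yap1 (15.3), Piezo2 (1.86), Kcnj2 (1.69) and Trpv4 (0.664). Ranges of neighbours overlapped from Ccn1 down to Tead1 and between Piezo2 and Kcnj2, and were separate at Tead1 and Yap1, Yap1 and Piezo2, and Kcnj2 and Trpv4. In dKO the order was Ccn2 (174), Ccn1 (150), Ankrd1 (47.7), Wwtr1 (43.8), Piezo1 (30.5), Tead1 (21.6), Yap1 (14.4), Trpv4 (1.55), Piezo2 (1.54) and Kcnj2 (1.49). There the ranges were separate at Wwtr1 and Piezo1, Tead1 and Yap1, and Yap1 and Trpv4. Trpv4, Piezo2 and Kcnj2 could not be ordered in dKO.

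Other genes of the pathway were read from 8 lists in the same fit, and their counts stand beside 20.4% of all genes tested called higher and 32.6% called lower. Of the 22 Hippo kinases and regulators, all tested, 8 were higher and 4 lower in dKO, and 10 were not called, with a median log2 fold change of 0.06. The 12 called of 22 are close to the 53.1% called among all genes tested. The 4 called genes with the largest change were Ptpn14 (0.87), a phosphatase that binds YAP, the kinase gene Stk3 (−0.54), Ajuba (0.50), a LIM protein that restrains LATS kinases, and Frmd6 (0.49). The 2 kinase pairs split by paralog. Stk3 (MST2) went from 10.6 to 7.04 FPKM and Stk4 (MST1) from 11.9 to 14.9 FPKM, a log2 fold change of 0.30 (limma adjusted p = 0.00439). Lats1 went from 16.3 to 13.2 FPKM (−0.28, limma adjusted p = 0.0156) and Lats2, itself a YAP/TAZ target, from 6.93 to 10.2 FPKM (0.49, limma adjusted p = 0.00315). Stk4, Lats1 and Lats2 were named after their values were seen.

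Among the other TEAD factors and Vgll cofactors, 5 of 7 genes were tested, with 2 higher, 1 lower and 2 not called, and a median of 0.07. Vgll3, a cofactor that competes with YAP and TAZ for TEAD, was the most abundant of them and went from 53.9 to 88.3 FPKM (0.72, limma adjusted p = 0.000844). Tead4 was at 1.65 FPKM in CTR and 2.29 FPKM in dKO (0.30, limma adjusted p = 0.00528), and Tead2 at 8.84 and 6.0 FPKM (−0.48, limma adjusted p = 0.00103).

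The other YAP/TAZ target genes moved in both directions. Of 19 tested, 8 were higher, 5 lower and 6 not called, with a median of 0.10, beside −0.10 for all genes. The largest changes were in Gadd45a (−1.42), a stress-response gene, Igfbp3 (−1.28), which encodes a binding protein of insulin-like growth factors, Ptpn14 (0.87) and the growth factor gene Tgfb2 (0.83). Igfbp3 was at 205 to 707 FPKM in CTR and 129 to 173 FPKM in dKO, so these targets fell while Ccn2 rose. Of the 6 other CCN and Ankrd paralogs, 3 were tested, 2 were higher and 1 was not called. Ccn3 went from 1.44 ± 0.135 to 6.78 ± 1.59 FPKM (log2 fold change 1.65, limma adjusted p = 8.18e-07, n = 6) and Ccn5 from 40.0 ± 10.8 to 125 ± 42.9 FPKM (1.57, limma adjusted p = 0.00058, n = 6). Ccn3 and Ccn5 encode matricellular proteins of the same family as Ccn1 and Ccn2. Ccn4, with a log2 fold change of 0.04 (limma adjusted p = 0.937), was the paralog not called.

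Of 17 other mechanically gated or stretch-linked channels, 14 were tested, with 3 higher, 4 lower and 7 not called, and a median of 0.03. The 7 called of 14 are likewise close to the 53.1% of all genes. The 4 largest called changes were in Pkd2, the gene of polycystin-2 (−0.53), Trpm7 (−0.46), Trpc1 (−0.30) and Tmem63a (0.29). Only 3 of the 14 other inward rectifier genes were tested. Kcnj8, the pore subunit of the vascular ATP-sensitive potassium channel, went from 11.2 ± 1.26 to 3.70 ± 1.28 FPKM (log2 fold change −1.41, limma adjusted p = 7.6e-06, n = 6), and Kcnj4 from 1.29 to 2.37 FPKM (0.56, limma adjusted p = 0.00338).

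All 15 genes of shear-stress sensing and response were tested, and 11 were higher, 0 lower and 4 not called, with a median of 0.49. The largest changes were in Thbd, the gene of thrombomodulin (1.34), Flt4, the gene of VEGFR3 (1.05), the flow-induced factor gene Klf4 (0.88) and Pecam1 (0.84). Pecam1, Cdh5 and Kdr of this list are also endothelial markers, and the 10 endothelial markers all rose, with a median of 0.83. The rise is therefore not particular to the shear-stress list, and the part of cell composition in it was not tested. Of 20 adhesion, actomyosin, nuclear lamina and SRF genes, 19 were tested, with 3 higher, 2 lower and 14 not called, and a median of 0.02. Zyx, the focal adhesion gene of zyxin (−0.86), and Myl9, a myosin light chain gene (−0.61), were lower, and the SRF coactivator genes Mrtfa (0.43) and Mrtfb (0.32) were higher.

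**Figure D5:**
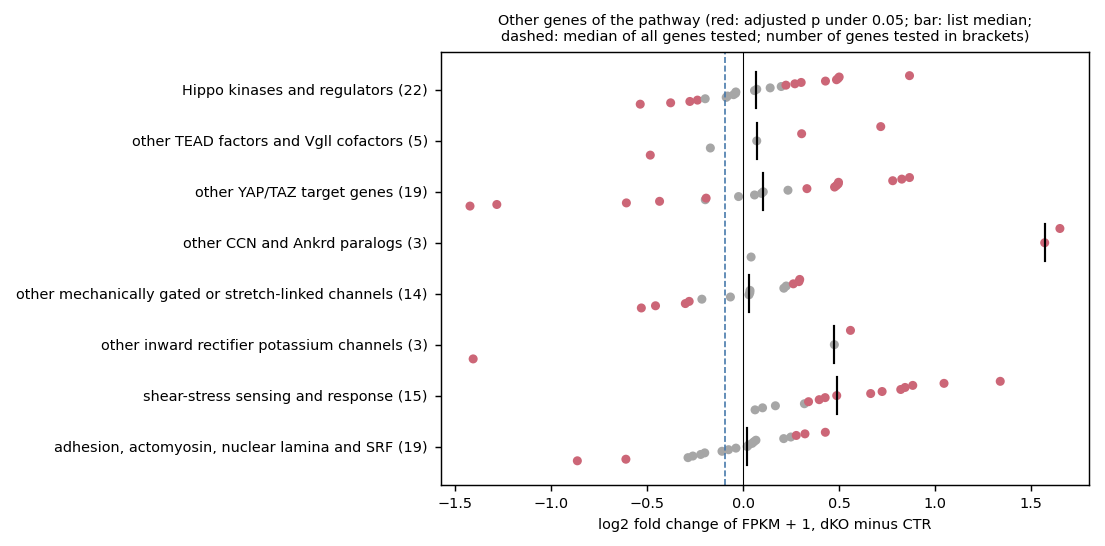
Log2 fold change of FPKM + 1 (horizontal axis, dKO minus CTR) of the other genes of the pathway, 1 row of points per list, with genes called at an adjusted p under 0.05 in red, the list median as a black bar and the median of all genes tested (−0.10) dashed. Most lists scatter on both sides of 0, whereas the 15 shear-stress genes all lie above it, as do the 3 other CCN and Ankrd paralogs tested. The 10 endothelial markers, not drawn here, were all higher as well.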

How the data were processed

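The authors trimmed the reads with Trimmomatic, aligned them with STAR to mm39, kept uniquely aligned reads and aligned these again. The submitters' processing notes instead name HISAT2 2.1.0, Bowtie2 2.2.3 and TopHat2, so the aligner remains uncertain. The counting program, annotation and strand setting are not given in the sources used here. The authors deposited FPKM values for 28689 genes, and columns were matched to groups through the labels. The knockout columns are named after tamoxifen, which both groups received.

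Genes that reached 1 FPKM in 6 or more of the 12 libraries were tested on log2(FPKM + 1), which understates changes of low genes, with limma 3.58.1 (lmFit and eBayes with a trend, no covariate) in R 4.3.3, and p was adjusted by Benjamini-Hochberg over 12467 genes. Exact permutation tests were two-sided over 924 splits, and exact tests of correlations ran over all pairings of the 6 libraries. Whole fragment numbers were recovered from the FPKM for all genes (100% came out whole within 0.02 fragments), to give depth and for limma-voom as an alternative. On a gene of 2 kb, a single fragment stood for 0.0279 FPKM in the deepest library. No library repeated another of its group, since a chi-square test of the fragment numbers gave 11.3 or more per degree of freedom in each of the 30 pairs within groups. Pairs of a CTR with a dKO library were not checked. Positions and promoters came from the GENCODE annotation of GRCm39, which matched 27706 genes by identifier. The promoter window of 1 member is not reported here. Near-identical copies were sought with BLAST 2.17.0 at 95% identity over 150 bases, and none other than the overlapping Gm17501 (Ccn1), Gm15270 (Ccn2) and Ctu2 (Piezo1) was found. Ccn1, Ccn2 and Ankrd1 also overlap antisense genes on the opposite strand, so their values are uncertain by the fragments these contribute. The remaining steps ran in Python 3.11.15 with pandas 2.3.3, NumPy 2.4.6 and numba 0.67.0, and figures were drawn with Matplotlib 3.10.9.

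The members, the 8 context lists and the 7 marker lists were chosen with earlier results of these data known. Named genes are the 10 members, Sp1, Sp3, from each context list the called genes (the 4 with the largest change where more were called), the most abundant gene of each marker list, any marker at 0, and 3 genes most alike to the members with the largest called rise and fall. Pdgfrb, Col1a2 and Col3a1 were named in addition, to describe their marker sums. Likeness was Pearson's r of group-centred log2(FPKM + 1). In simulated dKO against CTR data, limma called 50 of 50 genes planted at a log2 change of 1 and 14 of 12380 unchanged genes. The simulation took mean levels and library totals from the real data but gave all genes the same fixed dispersion. It therefore does not show how well changes of variable genes such as Ccn2 and Ankrd1 are found. Whether replicate numbers pair the libraries was not settled: same-numbered pairs correlated at −0.11 to 0.57, and 3 of 6 were over 0.1. Alternatives were a pseudocount of 0.1 or 0.01, a filter on mean FPKM or none, median-of-ratios, TPM, upper-quartile and quantile scaling, robust eBayes, array weights, limma-voom, the replicate block and leaving out each library. Correlations, ratios to marker sums and the likeness for Trpv4 were chosen after seeing the data.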

Additional observations from a re-analysis of the deposited data

Results flagged for a closer look

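Among 32 groups of 6 values checked for a value far from the others, 4 had one, where chance gives about 1.6 if the groups are independent. Ccn1, Ccn2 and Ankrd1 moved together within dKO, so their flags are not separate events and the excess cannot be read. All 4 were dKO replicate 1. It was highest for Ccn1 at 272 FPKM, where the other dKO libraries held 85.4 to 151 FPKM, for Ccn2 at 338 FPKM, where the others held 100 to 175 FPKM, and for Ankrd1 at 122 FPKM, where the others held 18.7 to 43.1 FPKM. Its ratio of Piezo2 to Piezo1 was 0.0609, and the others had 0.0454 to 0.0507. This library also had the fewest fragments, 15523054, the lowest fibroblast sum, 845 FPKM, and the highest smooth muscle and pericyte sum of the dKO group, 909 FPKM. The part of these in its values was not tested. Without it, Ccn2 remained called, at a log2 fold change of 1.29, Ankrd1 was at 0.50 (limma adjusted p = 0.363), and the log2 difference of the ratio of Piezo2 to Piezo1 was −0.56 (exact permutation, adjusted p = 0.00866).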

How the results depend on the processing

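Between 3 and 4 of the 10 genes were called in the 24 alternatives. Ccn2 and Trpv4 were called in all of them, at log2 fold changes of 1.29 to 1.69 and 0.56 to 1.27. For Trpv4 the number of calls is not separate support, since all fits but the one with no filter kept genes by levels that include dKO. Median-of-ratios scaling gave 3213 genes higher and 3012 lower (51.6% higher), beside 2549 and 4065 (38.5% higher), and moved the median change of all genes from −0.10 to −0.02. It ended the call of Wwtr1 (−0.15, adjusted p = 0.116) and gave one for Piezo1 (0.34, adjusted p = 0.02). Piezo1 was also called with upper-quartile scaling (0.27, adjusted p = 0.0454), quantile normalization (0.27, adjusted p = 0.0487) and array weights (0.24, adjusted p = 0.033), and, on leaving out each library (0.17 to 0.30), without CTR replicate 6 or dKO replicate 6. Leave-one-out values of Kcnj2 ran from −0.27 to −0.077, and it was called without dKO replicate 5 only. Those of Sp3 ran from −0.18 to −0.11, with a call without CTR replicate 6 (adjusted p = 0.0326). Ccn2 kept its call but not always a log2 fold change over 1.5, as without dKO replicate 1 (1.29) or with quantile normalization (1.41). Ccn1, not called in any of them, took either sign (−0.15 to 0.19). The cause of these shifts was not tested, except that leaving out a library leaves fewer samples.

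With the replicate number as a block, 6955 genes were called in place of 6614. Only 2 of the 6 pairs correlated best with their own number, replicates 1 and 4, at 0.44 and 0.57. The labels give no pairing. Under the block, the SE of Ccn2 went from 0.349 to 0.181 and that of Ccn1 from 0.285 to 0.16. For Ankrd1 the SE went from 0.5 to 0.275, while for Wwtr1 it rose from 0.0741 to 0.0774. Whether the libraries are paired thus remains unsettled. Ankrd1 passed with the block (0.82, adjusted p = 0.0325), and the adhesion, actomyosin, nuclear lamina and SRF list had 9 called genes in place of 5. The paired sign-flip tests of the ratios of Ccn2 to Ccn1 (1.47) and Piezo2 to Piezo1 (−0.51) each gave an adjusted p of 0.0625 over the 4 ratios. In both ratios every same-numbered pair differed in the same direction, which gives the smallest p that sign flips of 6 pairs allow. With the other ratios as they were, the adjusted p could not have fallen under 0.05, so it shows no loss of the difference.

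Trpv4 rests on 25 to 70 fragments per CTR library, and the coefficients of variation of Ankrd1 were 69.0% in CTR and 79.4% in dKO.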
